A study of Coregonus lavaretus with 13 samples.

Results

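The contigs described here are 122 putative long non-coding RNAs (lncRNAs) of whitefish liver that were read in control fish, reached a high count 6 days after an injection of microcystin-LR (MC-LR), and were listed in the table of day 6 but not in those of day 1 or day 9. Each table lists contigs at an adjusted p under 0.001, with no lower limit on the fold change. They were selected on the day 6 contrast itself. A contig was a member if its ID stood in the day 6 table and in neither of the other tables, if it had at least 1 read over the 4 control fish, and if its mean raw count over the 3 day 6 fish was 200 or more and above the mean of the controls. Of the 4729 contigs listed in any of the 3 tables, 3866 were in the day 6 table, 1569 of these were in that table alone, 500 of the 1569 were higher in the exposed fish, and 122 passed the limits on counts. Every difference between exposed and control fish given below is therefore a description of contigs chosen for that difference, and none was tested.

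The study compared livers of juvenile European whitefish (Coregonus lavaretus, Rutki-strain). The 4 PBS_1d fish received an injection of phosphate buffered saline, the solvent of the toxin, and were sampled after 1 day. The 3 MC_6d fish received 1 dose of MC-LR (100 μg per kg) and were sampled after 6 days, before the second injection that the day 9 fish (MC_9d) received. Each fish was a separate animal and gave 1 library. The PBS fish of day 1 also served as the controls of day 6, and each group had its own tank, so the toxin, the time since injection and the tank cannot be told apart in this contrast. In a sample of whole liver, more cells of a type and more RNA per cell cannot be told apart either.

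MC-LR is a cyclic peptide made by cyanobacteria. It enters hepatocytes through organic anion transporters and inhibits the serine and threonine protein phosphatases of the PP1 and PP2A families, and it is known for injuring the liver of fish and mammals. LncRNAs are transcripts without a recognisable protein product. Well-studied ones act in the nucleus on chromatin and splicing, or in the cytoplasm by binding proteins and microRNAs, but most lncRNAs found by sequencing have no known role, and in fish few have been studied. The members belong to that last kind. They are contigs assembled de novo from the reads and left after the study removed protein-coding transcripts and known non-coding RNAs. The study also checked coding potential and set apart contigs that matched 3′ untranslated regions of mRNAs. The paper regards such transcripts as predictions that need experimental proof. The members carry an assembly ID and no gene name. The labelled tissue could therefore not be checked against liver markers, and no role can be given for any of them. IDs are given without their common prefix TRINITY_: in DN111596_c6_g1_i15, the part up to g1 is the Trinity gene (a group of contigs the assembler took as isoforms), and the part up to c6 is the component (a wider group of contigs that share sequence). Values are normalized counts, which are reads divided by the size factor of the fish. The length of a contig is not part of this unit, so a count compares fish for 1 contig and does not rank contigs by their number of molecules. A contig missing from the tables of days 1 and 9 had no adjusted p under 0.001 there. Its counts on those days were not analysed here, and whether it differed between days was not tested.

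Reads from the 122 members made up 1.70 to 1.95% of the reads on all contigs of the day 6 table in the PBS fish and 13.3 to 21.0% in the MC_6d fish. The total behind this share was itself lower in the exposed fish (979744 to 1188494 reads, against 1738607 to 2100955 in PBS fish), so the share differs by more than the members' own counts. Clean reads per library were 50884809 to 57506983 for PBS and 53652794 to 57022724 for MC_6d, and the size factors averaged 0.970 ± 0.0513 (SD, n = 4) and 1.12 ± 0.0577 (SD, n = 3). The summed normalized counts of the members were 36014, 39454.5, 37199 and 35134 in PBS fish 1 to 4 and 174706, 189583 and 143862 in MC_6d fish 1 to 3. The 4 PBS sums lay close together and all 3 exposed sums were far above them, with means of 36950.4 ± 1872 (SD, n = 4) and 169384 ± 23321 (SD, n = 3), or 4.58-fold. Without the most counted contig the ratio was 5.02-fold.

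The members were a set of moderately raised contigs with a clear level in control liver. The mean count over the PBS fish had a median of 96.5 over the 122 contigs, with a range from 1.03 to 12858, and the mean over the MC_6d fish had a median of 407, from 177 to 48336. In the PBS fish 96 members averaged 50 counts or more, 23 averaged 10 to under 50, 3 averaged 1 to under 10, and none averaged under 1. The exposed mean was 2.15 to 333 times the control mean with a median of 4.17. The ratio was under 4-fold for 57 members, 4-fold to under 8-fold for 44, 8-fold to under 16-fold for 14 and 16-fold or more for 7. The 57 contigs under 4-fold are listed contigs, but by these ratios they are below the fold limit (4-fold) that the study's calls required in addition to the adjusted p. Ratios were smaller where control levels were higher, with medians of 70.7-fold, 7.93-fold and 3.77-fold in the 3 classes from low to high. This order was largely set by the selection, since a contig with a low control level reaches a mean of 200 reads in exposed fish only at a large ratio, so nothing is read from it. In 119 members every MC_6d fish was above every PBS fish. Over the whole day 6 table this held for 33.6% of the contigs, and since the members were chosen as higher in MC_6d, nothing is read from the gap.

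**Figure D1:**
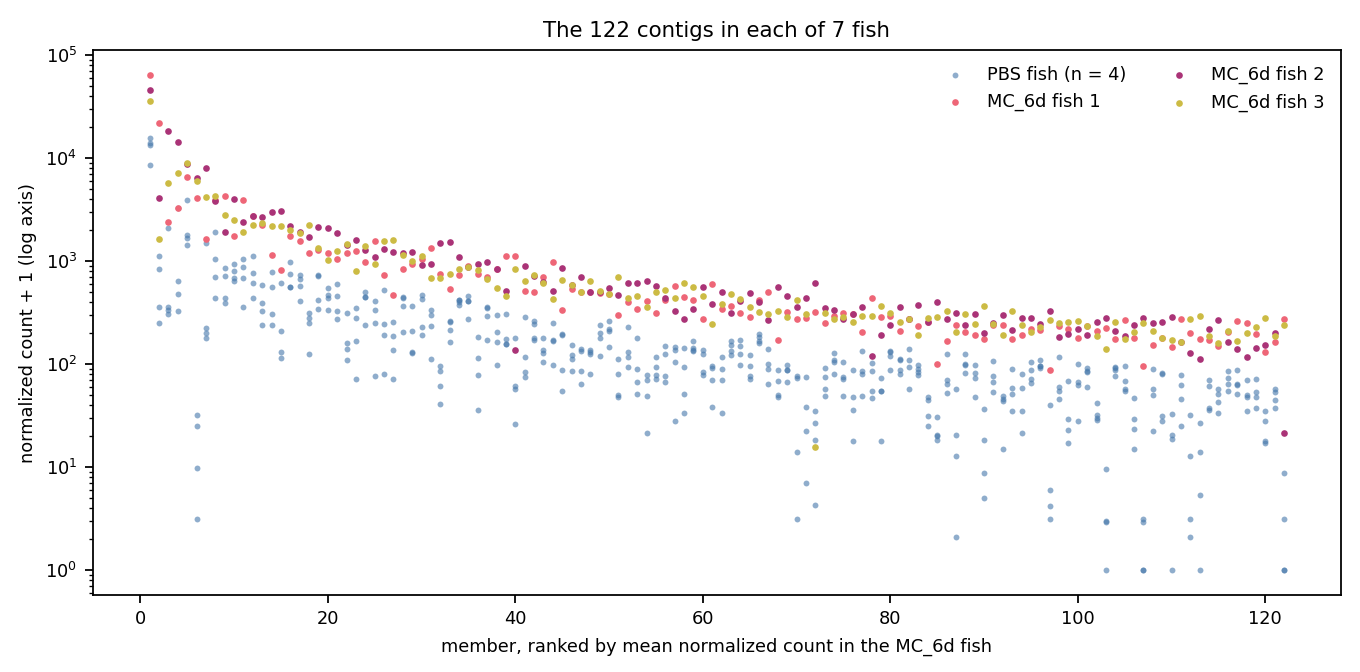
Normalized count plus 1 (log axis) of each of the 122 members in 4 PBS fish (blue) and 3 MC_6d fish (red, purple and yellow), ordered by the mean of the MC_6d fish. The exposed fish lie above the controls in 119 members, and the ratio of group means is largest at rank 6.

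The counts were concentrated in a few contigs. The 8 members with the highest exposed mean held 57.1% of the summed counts of the MC_6d fish and 52.0% of those of the PBS fish. One Trinity gene supplied 2 of the 8. DN111596_c6_g1_i15 had 13847, 15687, 13275 and 8622 counts in PBS fish 1 to 4 and 63919, 45801 and 35287 in MC_6d fish 1 to 3. It was the most counted member in every fish, held 24.2 to 39.8% of the members' sum, and was 3.76-fold higher between group means, from 12858 ± 3005 (SD, n = 4) to 48336 ± 14483 (SD, n = 3). DN111596_c6_g1_i11, from the same Trinity gene, had 1683, 3919, 1804 and 1416 counts in PBS fish and 6545, 8638 and 8908 in MC_6d fish. Its ratio of 3.64-fold was close to that of the first contig, but the order of the exposed fish was turned around, with fish 1 highest for i15 and lowest for i11. Reads that fit both contigs could have been counted on either, so the split between them is uncertain.

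DN92440_c1_g2_i1 was the eighth by exposed mean and the fourth by control mean. Its counts were 694, 1036, 1900.5 and 434 in PBS fish and 3887, 3813 and 4261 in MC_6d fish. The PBS fish were spread over more than 4-fold while the exposed fish had a coefficient of variation (SD over mean) of 6.02%, and the group means, 1016 ± 639 (SD, n = 4) and 3987 ± 239.8 (SD, n = 3), gave 3.92-fold.

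DN109056_c11_g1_i1 had the largest ratio of all members. It had 31.2, 23.9, 2.17 and 8.80 counts in PBS fish 1 to 4 and 4124, 6426 and 5934 in MC_6d fish 1 to 3. No control liver thus exceeded 31.2 counts and no exposed liver was below 4124, a 333-fold ratio of means (16.5 ± 13.4, SD, n = 4, to 5494 ± 1212, SD, n = 3). Among the 8 members with the highest exposed mean, the next lowest control mean was 519.

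The next largest ratios belonged to members with few control reads, and their size is known less well. DN83144_c8_g1_i2 had 2.15, 0, 0 and 1.96 counts in PBS fish, from 4 reads in all, and 94.9, 277 and 248 in MC_6d fish. The ratio of means was 201-fold, with a 95% exact counting interval of 76.7 to 726 that covers counting error only. DN98651_c3_g1_i2 had 0, 0, 2.17 and 7.82 counts in PBS fish and 274, 20.6 and 236 in MC_6d fish. It had 10 control reads, a 70.7-fold ratio (counting interval 37.8 to 147) and 1 exposed fish, number 2, far below the others. DN75298_c0_g1_i1 had 0, 1.99, 8.67 and 1.96 counts in PBS fish and 225, 279 and 140.1 in MC_6d fish, a 68.0-fold ratio from 12 control reads (counting interval 39.4 to 135). Each ratio was larger without the control fish that had the highest count. It was 317-fold for DN83144_c8_g1_i2 without PBS fish 1, 245-fold for DN98651_c3_g1_i2 without PBS fish 4 and 163-fold for DN75298_c0_g1_i1 without PBS fish 3. In DN83144_c8_g1_i2, PBS fish 1 and PBS fish 4 were about level, so no single control fish stood apart. In all 3 contigs each exposed fish was above each control fish.

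DN88123_c6_g1_i3 and DN92836_c9_g4_i1 completed the 6 largest ratios. DN88123_c6_g1_i3 had 3.23, 4.98, 2.17 and 39.1 counts in PBS fish and 85.6, 327 and 265 in MC_6d fish. One control fish, number 4, stood apart, and the ratio was 18.2-fold with it and 65.3-fold without it. DN92836_c9_g4_i1 had 4.30, 25.9, 13.0 and 0 counts in PBS fish and 175, 110.4 and 289 in MC_6d fish, an overall 17.8-fold ratio that was 33.2-fold without PBS fish 2. For both contigs the groups did not overlap.

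The 6 smallest ratios were found in contigs whose control fish varied less, relative to their mean, than in the median member. A small ratio reaches an adjusted p under 0.001 more readily where the spread is small. The selection thus favoured this, and nothing is read from it. DN97068_c7_g4_i2 had 165, 158, 194 and 183 counts in PBS fish and 414, 395 and 321 in MC_6d fish. At 2.15-fold this was the smallest ratio of any member, yet the lowest exposed fish was well above the highest control fish. DN104964_c2_g3_i2 had 376, 416, 413 and 399.9 counts in PBS fish and 732, 1084 and 839 in MC_6d fish, or 2.21-fold, and it was the 1 member whose ratio was under 2-fold, at 1.96-fold, when its highest exposed fish was left out. DN106679_c1_g2_i1 had 90.4, 107, 94.3 and 94.8 counts in PBS fish and 212, 246 and 227 in MC_6d fish, or 2.36-fold. The control fish lay close together in each of these, while the exposed fish of DN104964_c2_g3_i2 were spread from 732 to 1084. DN85853_c11_g1_i2, with 85.6 to 133 counts in PBS fish and 238 to 310.3 in MC_6d fish, reached 2.38-fold. DN90082_c0_g1_i1, with 145 to 258 and 473 to 545, reached 2.39-fold. DN108668_c4_g2_i1 (2.29-fold) is described with the contigs of least spread.

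**Figure D2:**
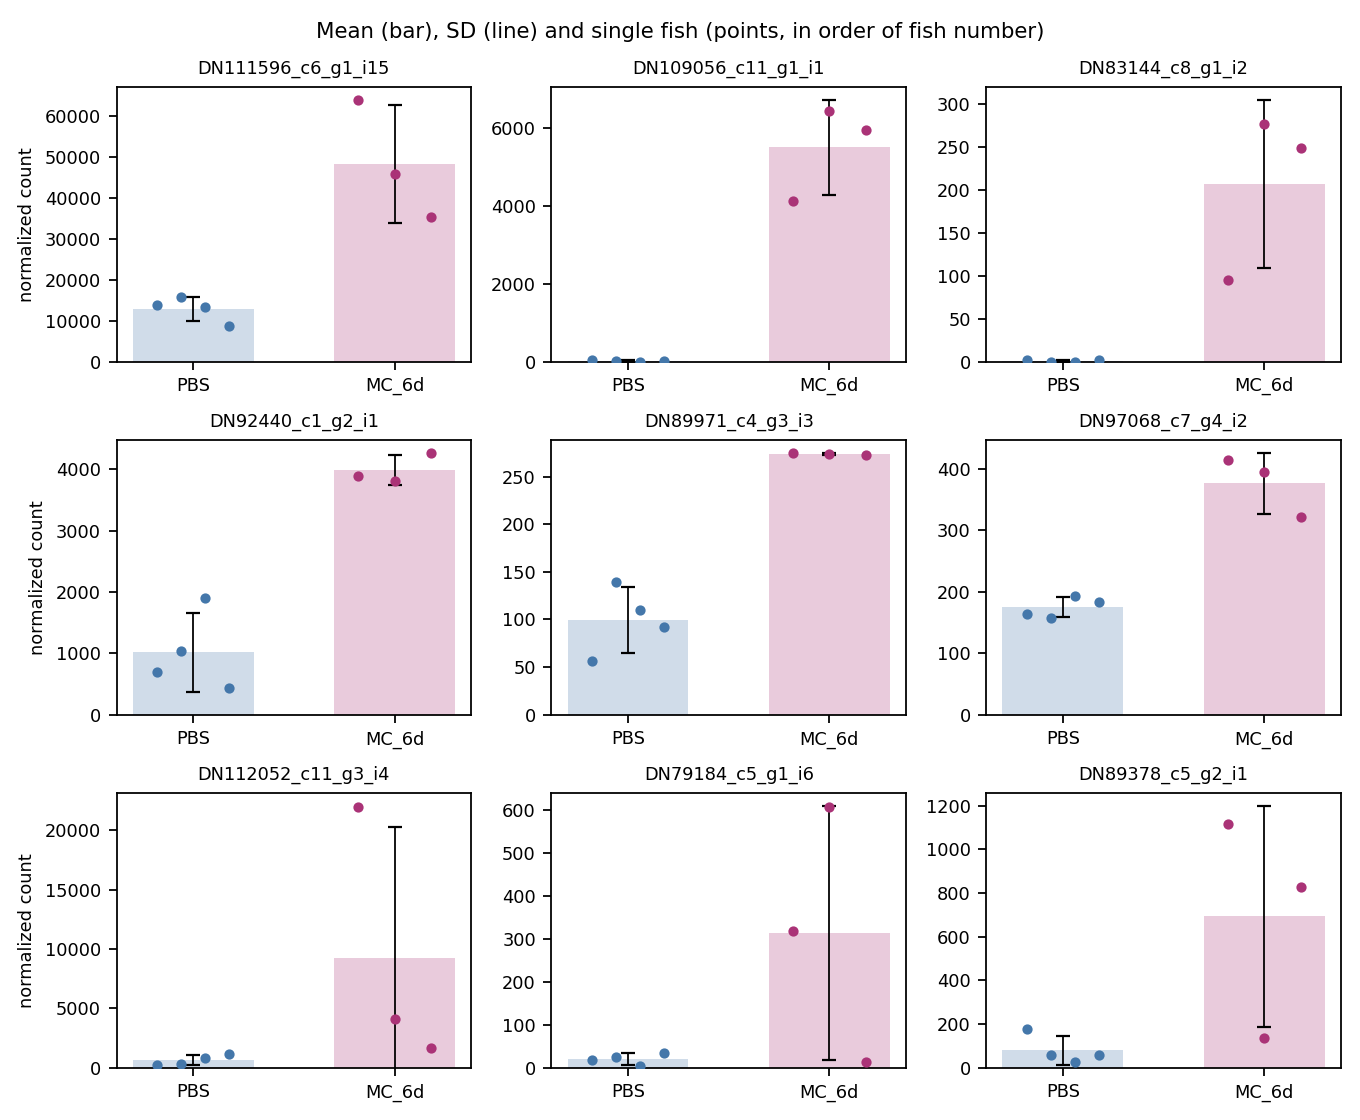
Normalized counts of 9 members in PBS fish (n = 4) and MC_6d fish (n = 3), with the mean as a bar, the SD as a line (cut at 0 where it passes it) and 1 point per fish in order of fish number. Top row: the most counted member and the members with ratios of 333-fold and 201-fold. Middle row: 3 members with little spread among exposed fish. Bottom row: 3 members with a wide spread among exposed fish.

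Relative to their mean, the exposed fish varied less than the controls in most members. The coefficient of variation had a median of 24.8% over the MC_6d fish and 36.7% over the PBS fish, and it was smaller in the MC_6d fish for 89 of 122 members. The same medians were 32.8% and 54.1% over all 1311 contigs higher in exposed fish. They were 48.7% and 46.0% over all contigs of the day 6 table, so raised contigs in general showed the gap and the whole table did not. The count levels differed as well, with median means of 112 in MC_6d and 8.21 in PBS fish over the 1311, and 14.9 and 44.9 over the whole table. Read sampling spreads low counts more, and its part in the gap was not tested. The selection by adjusted p also favoured small spreads, so nothing is read from the gap. The coefficient of variation was under 10% in the MC_6d fish for 11 members. DN89971_c4_g3_i3 had 275, 273 and 273 counts in MC_6d fish 1 to 3, against 56.0, 139, 109 and 91.9 in the PBS fish. Its coefficient of variation of 0.312% over the exposed fish was the smallest of the 122. DN108668_c4_g2_i1 had 902, 881 and 872 counts in MC_6d fish (1.74%) and 411, 457, 274 and 405 in PBS fish. DN103396_c1_g1_i1 had 485, 497 and 511 (2.67%) against 236, 199, 179 and 117, a 2.72-fold ratio. In the other 2 the ratio was 2.76-fold (DN89971_c4_g3_i3) and 2.29-fold (DN108668_c4_g2_i1). All 3 contigs were thus modestly raised, with close counts in the exposed livers. They were picked as the smallest spreads of 122 over 3 fish. Read sampling alone spreads counts of this size, so nothing is read from the closeness.

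At the other end, 15 members had a coefficient of variation over 50% in the MC_6d fish, and in 16 members 1 exposed fish held more than 50% of the exposed counts. DN112052_c11_g3_i4 was the most uneven. It had 249.7, 353, 844 and 1127 counts in PBS fish and 21951, 4110.0 and 1633 in MC_6d fish. Fish 1 held 79.3% of the exposed counts, and the ratio of 14.3-fold with all fish was 4.46-fold without it. DN79184_c5_g1_i6 had 17.2, 25.9, 3.25 and 34.2 counts in PBS fish and 318, 606 and 14.6 in MC_6d fish. Exposed fish 3 was at the control level, so the groups overlapped, and the 15.5-fold ratio of means was 8.25-fold without exposed fish 2. DN89378_c5_g2_i1 had 177, 60.7, 24.9 and 56.7 counts in PBS fish and 1117, 135 and 829 in MC_6d fish. Here exposed fish 2 was below PBS fish 1, and the ratio was 8.70-fold, or 14.6-fold without that control fish. The third member whose groups overlapped, DN107139_c5_g3_i1, belonged to the profile described next. The exposed fish that stood out was not the same from contig to contig: fish 1 led in 26 members, fish 2 in 62 and fish 3 in 34, and the lowest value was in fish 1 for 63, in fish 2 for 25 and in fish 3 for 34. Over all 1311 contigs of the day 6 table that were higher in exposed fish, fish 2 led in 46.7%, close to its share of 50.8% among the members.

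Several of the most counted members shared a high value in PBS fish 4 and the order of the exposed fish, which was noticed after the values were seen. DN105492_c2_g3_i3 had 330.4, 306, 355 and 2094 counts in PBS fish 1 to 4 and 2412, 18119 and 5748 in MC_6d fish 1 to 3. DN105492_c2_g1_i1, another Trinity gene of the same component, had 222, 179, 197 and 1479 in PBS fish and 1639, 8061 and 4215 in MC_6d fish. DN107139_c5_g3_i1, which is in a different component, had 472, 639.8, 324 and 3274 in PBS fish and 3242, 14197 and 7185 in MC_6d fish. In all 3 contigs PBS fish 4 was 6.33 to 7.42 times the mean of the other control fish. Exposed fish 1 was about level with that control fish, at 0.990 to 1.15 times its count. Exposed fish 2 was 4.38 to 7.51 times exposed fish 1, and exposed fish 3 lay between. The ratio of exposed to control means depended on PBS fish 4: it was 11.4-fold, 8.93-fold and 6.97-fold with that fish, and 26.5-fold, 23.3-fold and 17.1-fold without it. Without exposed fish 2 it was 5.29-fold, 5.64-fold and 4.43-fold.

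PBS fish 4 as the highest control and the same order of exposed fish were also found in further members. DN113001_c4_g4_i1, named after its values were seen, had 209.9, 114, 129 and 615 counts in PBS fish and 825, 3057 and 2177 in MC_6d fish. DN83800_c1_g6_i1, DN112443_c4_g1_i1 and DN111229_c5_g6_i2, also named in this way, had both traits. At far lower counts so did DN88123_c6_g1_i3, described above. Members with both traits were not counted. The order alone was found in 36.1% of all members, so nothing is read from sharing it. DN105492_c2_g3_i2, a contig of the same Trinity gene as the first of the group but no member, followed the exposed fish (121, 485 and 332 counts) and not the controls, where PBS fish 4 was the lowest (7.53, 14.9, 13.0 and 6.84 counts). PBS fish 4 was the highest control fish in 33 of the 122 members, as were PBS fish 1 and PBS fish 3. This count does not say how far each stood above the other control fish. Leaving out 1 fish moved the ratio by more than 1.5 times in 19 members in all, and PBS fish 4 was such a fish for 9 of them, PBS fish 3 for 5 and exposed fish 2 for 4.

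**Figure D3:**
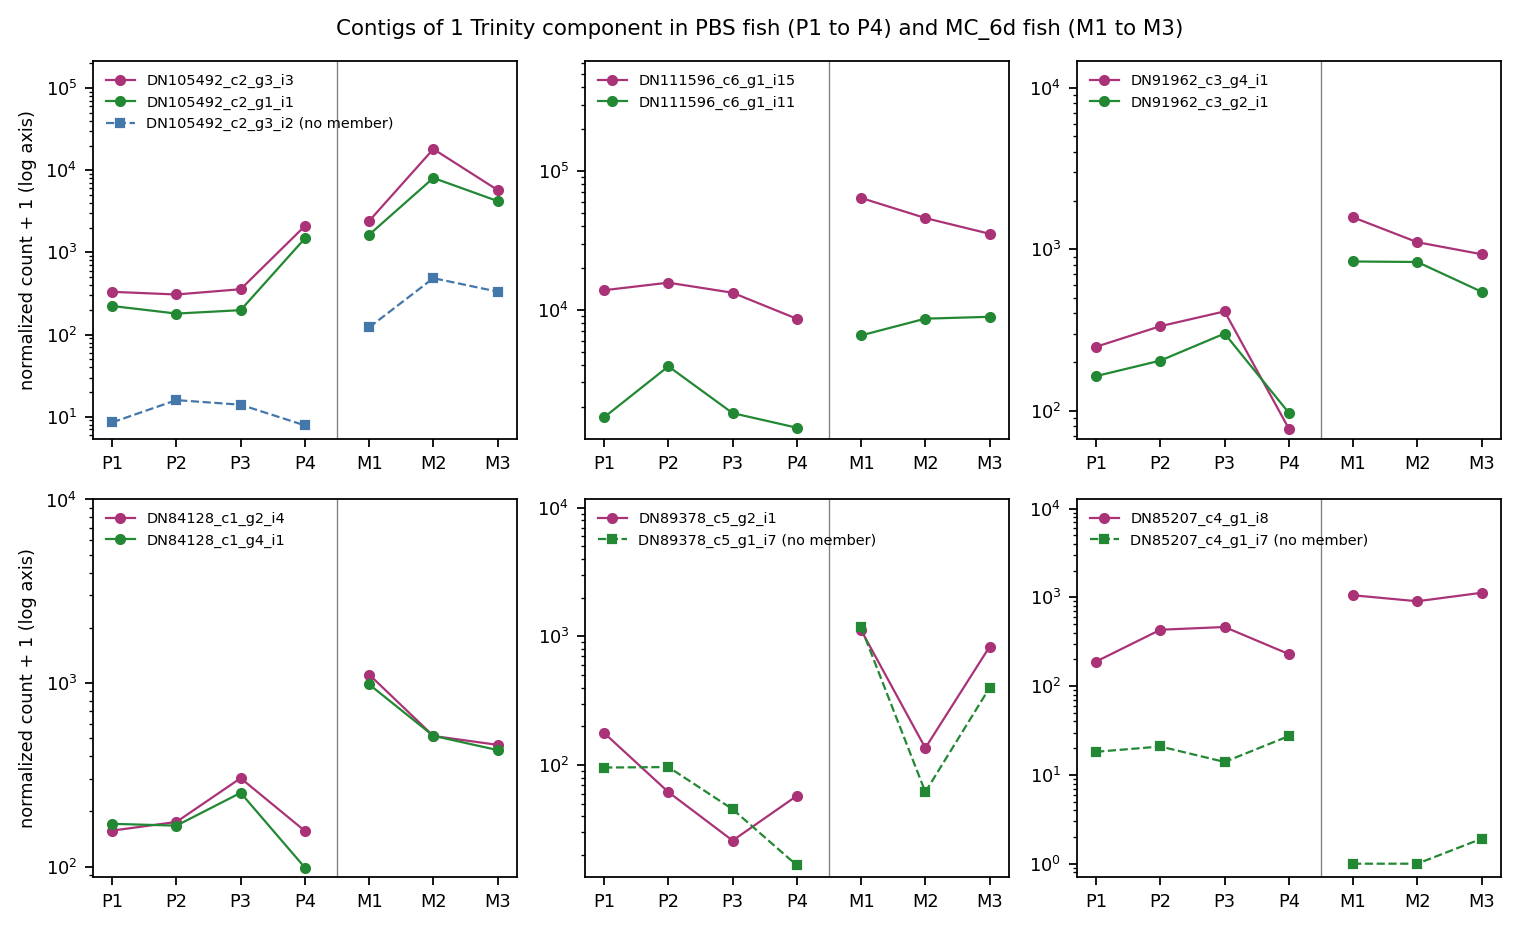
Normalized count plus 1 (log axis) of contigs from the same Trinity component in PBS fish 1 to 4 (P1 to P4) and MC_6d fish 1 to 3 (M1 to M3), members with solid lines and other contigs with dashed lines. Lines join the fish of 1 group to show the shape and carry no order in time. Within each of DN105492_c2, DN91962_c3 and DN84128_c1, the members have the same highest and lowest fish in both groups. The contigs i15 and i11 of DN111596_c6_g1 differ in the exposed fish, and the pair of DN85207_c4_g1 moves apart.

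The members came from 119 Trinity genes and 115 components, and 14 members shared a component with another member. Some of these pairs had the same highest and lowest fish inside each group, which the rule did not use, and others did not. Exposed fish 1 was highest for DN112318_c5_g1_i4 and lowest for i2 of that gene. The same held for i15 and i11 of DN111596_c6_g1. In DN84735_c4_g1, PBS fish 1 was the highest control for i1 and the lowest for i8. Contigs of 1 component can share reads, and the part of shared reads in this was not tested. DN91962_c3_g4_i1 had 248, 332, 411 and 76.3 counts in PBS fish and 1575, 1104 and 929.8 in MC_6d fish, and DN91962_c3_g2_i1 had 163, 203, 299 and 95.8 and then 838, 832 and 544. PBS fish 3 was highest, PBS fish 4 lowest and exposed fish 3 the lowest of its group in both. DN84128_c1_g2_i4 had 156, 174, 302 and 155 counts in PBS fish and 1112, 514 and 459 in MC_6d fish, and DN84128_c1_g4_i1 had 170.0, 166, 251 and 97.8 and then 982, 515 and 430.4. Exposed fish 1 held 53.3% and 51.0% of the exposed counts in these. DN83950_c2_g2_i5 and DN83950_c2_g3_i2 had ratios of 5.08-fold and 4.95-fold, with exposed fish 2 highest in both, as in 50.8% of all members. One contig outside the set, DN89378_c5_g1_i7, listed on days 6 and 9, had 1176, 60.8 and 398 counts in MC_6d fish 1 to 3. The member DN89378_c5_g2_i1 of the same component was likewise lowest in fish 2. Their controls differed: PBS fish 4 was lowest for DN89378_c5_g1_i7 (94.7, 95.5, 44.4 and 15.6 counts in PBS fish 1 to 4) and PBS fish 3 for the member.

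For 12 of the 119 Trinity genes (10.1%) another contig was listed in some table. In 2 of these genes the other contig was itself a member and no further one was listed, namely DN111596_c6_g1 and DN84735_c4_g1, whose contigs i1 and i8 had 237 to 251 and 150.0 to 264 counts in MC_6d fish, 3.25-fold and 4.23-fold above the control means. The other 10 genes had 11 listed contigs that were not members. The share of genes with another listed contig was 7.41% for contigs of day 6 alone with a mean under 200 reads, 2.60% for those of day 6 alone without a control read and 10.8% for abundant contigs raised on days 6 and 9, and these shares were not tested against each other. Of the 9 such contigs in the day 6 table, 8 were higher in the exposed fish, against 1311 of all 3866 contigs of that table. These contigs share a Trinity gene, and possibly reads, with members chosen as higher, so nothing is read from this count.

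In 4 genes a sister contig listed on day 6 was also listed, and higher in exposed fish, on day 9, so a transcript assigned to the gene was listed there even though the member was not. DN112318_c5_g1 had 2 members, i4 with 145, 134, 27.1 and 103 counts in PBS fish and 576, 325 and 436 in MC_6d fish (4.35-fold), and i2 with 89.3, 116, 32.5 and 68.4 and then 342, 498 and 381 (5.31-fold). Its contigs i11 and i7 were listed on both days, with 6.86-fold and 10.2-fold on day 6 and 6.86-fold and 10.7-fold on day 9. PBS fish 3 was the lowest control fish for i4, i2 and i7, and not for i11. DN98876_c1_g1_i5, a member, had 85.0, 60.7, 40.1 and 94.8 counts in PBS fish and 750.0, 1481 and 686 in MC_6d fish (13.9-fold). Its sister i4 had 392, 1465 and 1537 on day 6 (12.5-fold) and 837, 308 and 434 in MC_9d fish 1 to 3 (5.20-fold).

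DN100042_c5_g1_i1, a member, had 109.8, 46.8, 79.1 and 48.9 counts in PBS fish and 297, 467 and 703 in MC_6d fish (6.87-fold), and its sister i2 was at 5.89-fold on day 6 and 6.69-fold on day 9. DN105492_c2_g3_i2 had the widest gap between the tables among the sister contigs, with 29.6-fold on day 6 and 8.10-fold on day 9. Exposed and control fish did not overlap for any of these sister contigs on either day. On day 6 this held for 99.0% of all 1311 listed contigs higher in exposed fish, and the share for day 9 was not computed. Nothing is therefore read from it. The tables of days 6 and 9 were normalized separately and share the PBS fish, so values are set side by side and no difference between days was tested.

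**Figure D4:**
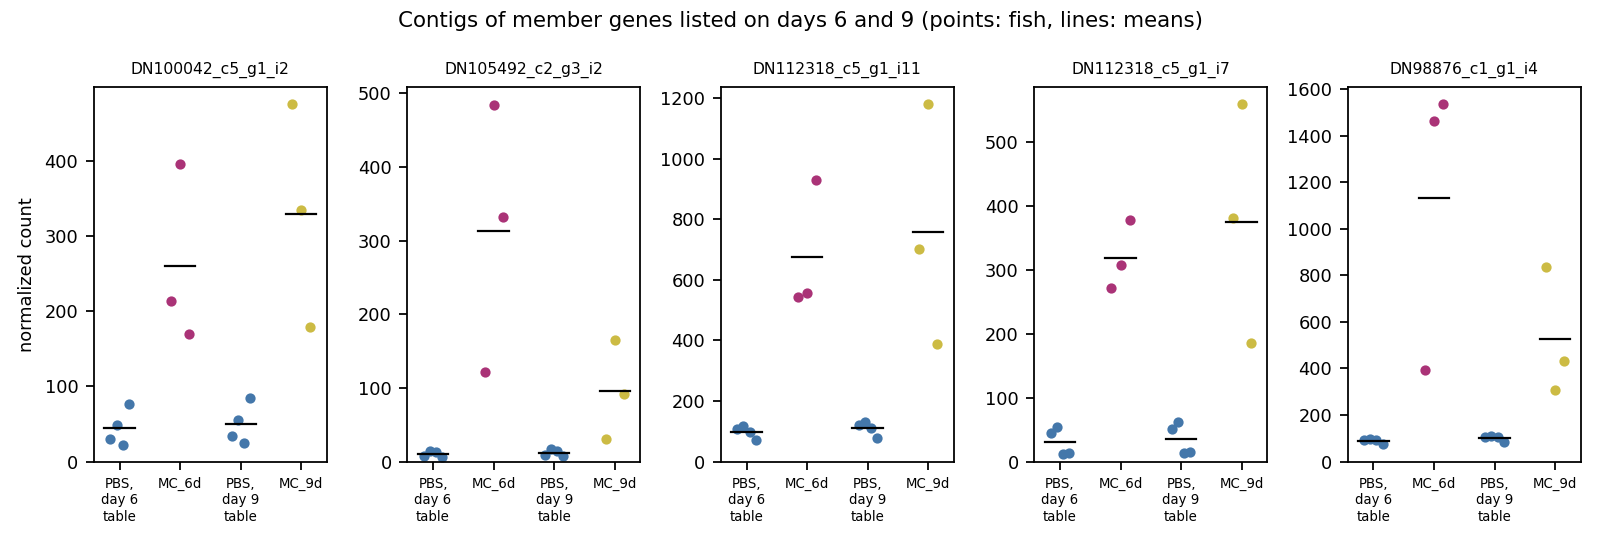
Normalized counts of the 5 contigs that share a Trinity gene with a member and were listed on days 6 and 9, in PBS fish scaled in the day 6 table, MC_6d fish, the same PBS fish scaled in the day 9 table, and MC_9d fish. Points are fish and lines are means, and the exposed fish lie above the PBS fish of their own table in every panel.

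Another 2 genes had a sister contig with no read in any PBS fish. DN112068_c5_g1_i6, a member, had 352, 168, 70.4 and 282 counts in PBS fish and 1251, 1586 and 792 in MC_6d fish (5.55-fold), and its sister i7 was listed on day 1 alone, with 34.2, 23.5 and 7.24 counts in the MC_1d fish. DN84128_c1_g2_i5, the sister of a member described above, was listed on day 9 alone with 16.1, 29.0 and 51.0 counts in the MC_9d fish. These counts are small beside the members' own.

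One gene held contigs that went in opposite directions. DN85207_c4_g1_i8, a member, had 188, 431, 463 and 229 counts in PBS fish and 1055, 903 and 1125 in MC_6d fish, or 3.14-fold higher. Its sister DN85207_c4_g1_i7 had 17.2, 19.9, 13.0 and 26.4 counts in PBS fish and 0, 0 and 0.910 in MC_6d fish. The sister contig was thus read 75 times over the controls and 1 time over the exposed fish, a ratio of 63.1-fold lower with a 95% exact counting interval of 11.3 to 2590. In neither contig did the groups overlap. The sister's counts were about an order of magnitude below the member's in control livers, so the summed reads of this pair followed the member. Any contigs of the gene that were not listed are not part of this sum.

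Beside like contigs, the members had smaller ratios and higher control levels at the median. The median log2 ratio of means (with 1 added to each mean) was 2.05 for the members, with quartiles of 1.68 and 2.71. It was 3.27 for the 285 contigs listed on days 6 and 9 but not day 1 that met the same limits on counts, 3.30 for the 301 contigs of day 6 alone with a mean under 200 reads, and 4.38 for the 77 contigs of day 6 alone without a control read. Of the members 46.7% had a ratio under 4-fold, against 12.3% of the 285 and 9.30% of the 301. The exposed means were alike for members and for the 285 (medians of 407 and 440.2), while the control means had medians of 96.5 and 45.1. The spread within groups was also alike, with median coefficients of variation over the MC_6d fish of 24.8% and 26.0%, and over the PBS fish of 36.7% and 35.0%. All these sets were chosen by the same contrast of the same fish, and the members in addition by missing from the day 9 table. The limits that define the sets act on both the ratios and the control levels. The differences between sets are therefore descriptions, and nothing is read from them.

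**Figure D5:**
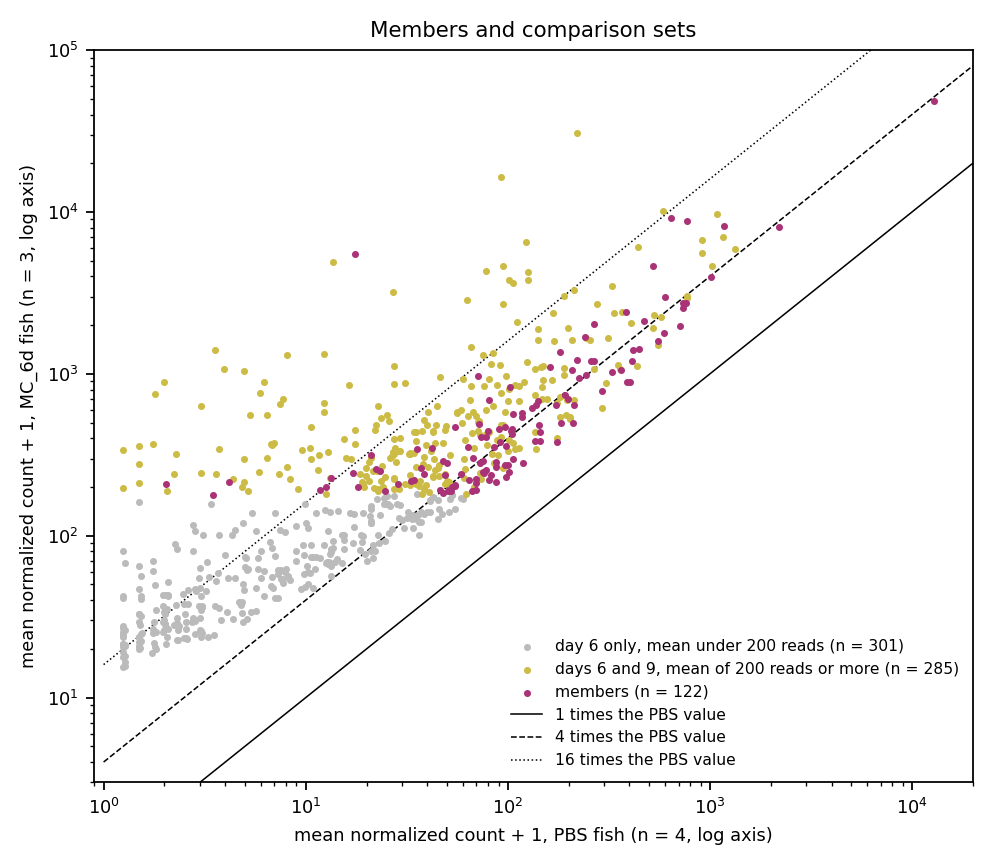
Mean normalized count plus 1 of each contig in PBS fish (n = 4) and MC_6d fish (n = 3), both on log axes, for the 122 members (purple), the 285 contigs listed on days 6 and 9 (yellow) and the 301 contigs of day 6 alone with a mean under 200 reads (grey). Lines mark 1, 4 and 16 times the PBS value. Members crowd around the 4-fold line and 7 of them reach 16-fold or more.

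At the count threshold of 200, the nearest contigs on either side had close raw counts. Just inside lay DN98651_c3_g1_i2, described above, with a mean of 201 raw reads, and DN96001_c0_g3_i1 with 203, whose normalized counts were 36.6, 43.8, 52.0 and 55.7 in PBS fish and 163, 199 and 187 in MC_6d fish (3.89-fold). Just outside lay DN98414_c5_g3_i2 with 198 raw reads and a 3.44-fold ratio, and DN85372_c8_g5_i1 with 197 raw reads and a 5.23-fold ratio. The threshold thus fell between contigs of close counts, and the distribution of counts over all candidates was not examined.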

How the data were processed

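Livers of 4 PBS_1d fish and 3 MC_6d fish were compared, with values of MC_1d and MC_9d fish (n = 3 each) for contigs that share a Trinity gene with a member. The authors trimmed reads (Trimmomatic 0.36), assembled contigs with Trinity, removed redundant and lowly expressed contigs (RSEM), mapped reads with Bowtie2 and counted them per contig with SAMtools idxstats, for which no use of strand is described. The counts were deposited unnormalized. The mean signal per contig (the base mean) is the authors' mean of counts divided by DESeq2 size factors. The deposited tables list contigs with an adjusted p under 0.001. Their columns of log2 fold changes, standard errors, Wald statistics and p-values (DESeq2 1.28.0) hold the study's own comparison and were not used. Count columns of no sample numbered 0.

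Size factors were recovered by least squares from counts and base means (largest relative error 5.55e-15 for day 6) with numpy 2.4.6, after a run on simulated data. Normalized count is count over size factor. Ratios are of group means, and log2 ratios add a pseudocount of 1 to each mean. Groups came from the labels. The members and lists were chosen with earlier results of these data known, and the members were selected on the contrast described, so no test was run. Named contigs are the 8 highest by exposed mean, the 6 largest and 6 smallest ratios, the 3 most and 3 least variable over MC_6d fish, those whose groups overlap, up to 10 whose Trinity gene has another listed contig, 4 at the count threshold, and the 4 highest by control mean. None of the member IDs (0) matched the RefSeq gene table. Alternatives were other scalings, pseudocounts and thresholds, and leaving out each fish.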

Additional observations from a re-analysis of the deposited data

Results flagged for a closer look

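In 6 named members 1 of the 4 PBS fish stood far from the other 3, by a gap to the nearest fish above the 95% critical value of Dixon's test (0.845 to 0.973 of the group's range). For normally distributed values chance alone marks about 1 group in 20 in this way. Whether these counts are so distributed was not checked, and the rate may differ for them. Over all 122 members 7 had such a high control fish and 1 such a low one (6.56%). PBS fish 4 was high in DN105492_c2_g3_i3 (2094 counts), DN107139_c5_g3_i1 (3274), DN105492_c2_g1_i1 (1479) and DN88123_c6_g1_i3 (39.1). The seventh high value was also in that fish, in DN112972_c8_g2_i1. PBS fish 2 was high in DN111596_c6_g1_i11 (3919) and PBS fish 3 in DN84128_c1_g2_i4 (302). In all 5 members with a high PBS fish 4 the exposed fish had the same order, fish 2 above fish 3 above fish 1, an order found in 36.1% of all members. Over the 1311 contigs of the day 6 table higher in exposed fish, 83 (6.33%) had PBS fish 4 as such a high value, against 4.10% of the members. That order was found in 33 of these 83 and in 417 of all 1311, so nothing is read from it. The rate of 1 in 20 counts any of the 4 fish on either side, so it is not the rate for 1 named fish on the high side, which is lower. No explanation was tested.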

How the results depend on the processing

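The number of members was 122, and it was 210 with a threshold of 100 reads, 67 with 400, and 109 with the threshold on normalized counts. It was 119 to 125 without any 1 fish, and 116 to 122 of these were among the 122. The median log2 ratio, 2.05, was 2.24 on raw counts, 2.18 with scaling by clean reads and 3.88 with median-of-ratios factors of the listed contigs, and 2.03 to 2.11 without any 1 fish. The last scaling takes the listed contigs as mostly unchanged although most were lowered (median log2 ratio of all listed contigs -3.05), and it also moved the summed count of the MC_6d fish from 169384 to 364935 (159284 to 182145 without 1 exposed fish) and the ratio of sums from 4.58-fold to 16.2-fold. On raw counts that ratio was 5.27-fold. These scalings of the sums, and of the order of the exposed fish, were added after seeing the data. By component in place of Trinity gene, 22 groups had another listed contig and not 12. The members whose groups did not overlap numbered 119 to 122 under all scalings and leave-outs. Of 403 values of single named contigs under the alternatives, 0 turned direction, 324 moved by less than 1 SD of the exposed fish and 79 by more. The direction was part of the selection, so nothing is read from the 0. The SD is wide where the exposed fish differ much, so a move of less than 1 SD can be large. For DN105492_c2_g3_i3 it covered 11.4-fold to 26.5-fold without PBS fish 4. No paired analysis was possible because the results come from no test, and the fish of the groups are separate animals with no link beyond a replicate number. With 3 exposed and 4 control fish, counts under about 10 in a control fish rest on few reads.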

Other observations

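Contigs of 1 component did not always go the same way. Grouped by component, 19 contigs that were not members stood beside members in the day 6 table, and 17 of them were higher in the exposed fish. One of the 2 exceptions is the sister of DN85207_c4_g1_i8. The other, DN80144_c6_g1_i1, had 266, 192, 165 and 171 counts in PBS fish and 6.78, 14.0 and 13.6 in MC_6d fish, and it was also low on day 9 with 42.8, 38.4 and 40.1 counts in the MC_9d fish. Different Trinity genes of 1 component need not be isoforms of 1 transcript.

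DN98999_c0_g1_i8, in the component of the member DN98999_c0_g2_i1, was listed on day 1 alone. It had 38.1, 403, 40.2 and 70.1 counts in PBS fish and 1322, 1109 and 1176 in the MC_1d fish, so that 1 control fish was far above the other 3 and the exposed fish were close together. Among contigs that were not members but shared a component with one, the highest exposed counts were those of DN90635_c0_g3_i1, with 7947, 11724 and 9591 counts in MC_6d fish (8.98-fold) and 7189, 5909.7 and 4386 in MC_9d fish (4.80-fold).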
